A study of Mus musculus with 8 samples.

Results

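The 9 genes of EpCAM cleavage and beta-catenin signaling followed in the RNA-Seq counts were the proteases *Adam10*, *Adam17*, *Bace1* and *Psen2*, and the nuclear signaling genes *Fhl2*, *Ctnnb1*, *Lef1*, *Tcf7* and *Tcf7l2*. They are 9 of the 54532 genes of the table and were chosen by symbol. The libraries came from LSK cells (bone marrow cells that lack lineage markers and carry SCA-1 and C-KIT) of *Zeb1* fl/fl;*Mx1*-Cre+/- C57BL/6 mice that were 8 to 12 weeks old and had been given pIpC to delete *Zeb1*. Cells were collected 14 days after the last pIpC dose and divided by surface EpCAM. There were 4 libraries of *Zeb1*-/- EpCAM+ cells and 4 of *Zeb1*-/- EpCAM- cells, so both fractions carried the deletion and no library came from a mouse without it. *Mx1*-Cre is switched on by interferon and is also active outside the blood, so *Zeb1* was not deleted in LSK cells alone.

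EpCAM is a membrane protein of epithelial cells that can be cut in consecutive steps. A sheddase of the ADAM family, or BACE1, first releases the extracellular part, and gamma-secretase, whose catalytic subunit is a presenilin, then frees the intracellular domain. That domain can enter the nucleus with FHL2 and beta-catenin and bind DNA through TCF/LEF factors, which are also the nuclear end of canonical Wnt signaling and are best known in blood for their roles in T cell development.

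The sort was visible in the RNA. *Epcam* lay between 160.5 and 234 CPM (counts scaled to the size of the library) in EpCAM+ libraries and between 1.25 and 8.99 CPM in EpCAM- libraries. *Zeb1* reads were present in every library, at 23.7, 14.8, 20.8 and 18.8 CPM in EpCAM+ replicates 1 to 4 and at 13.4, 14.0, 10.7 and 9.49 CPM in EpCAM- replicates 1 to 4. The counts are summed over each gene, so reads of a deleted and of an intact *Zeb1* allele cannot be told apart. Each library held 14114491 to 17073546 counts, and stem and progenitor markers were detected in all of them, with 12 of 12 markers tested, 9 higher in EpCAM+ cells and a summed level of 3063 to 3345 CPM there against 1679 to 2475 CPM in EpCAM- cells. EpCAM+ replicates 1 and 4 stood apart by conventional dendritic cell markers, whose summed level was 12295 and 12757 CPM there, 921 and 3169 CPM in EpCAM+ replicates 2 and 3, and 114 to 328 CPM in EpCAM- libraries. Plasmacytoid dendritic cell markers were also highest in EpCAM+ replicates 1 and 4, at 602 and 505 CPM. They summed to 155 and 232 CPM in EpCAM+ replicates 2 and 3 and to 212 to 309 CPM in EpCAM- libraries. Plasma cell markers reached 3926 CPM in EpCAM+ replicate 1, against 170 to 665 CPM in the other libraries. Neutrophil, erythroid, and mast cell and basophil markers had lower summed levels in EpCAM+ libraries. For neutrophils the sums were 1040 to 1605 against 10711 to 17134 CPM, and 4 of 9 tested genes fell. For erythroid cells they were 69.2 to 259 against 1979 to 6755 CPM, and 6 of 8 fell and 1 rose. For mast cells and basophils they were 71.9 to 97.0 against 282 to 566 CPM, and 4 of 6 fell. Monocyte and macrophage sums overlapped, at 84.5 to 417 against 223 to 847 CPM, and 3 of 6 tested genes fell. The part of these cell types in the genes that were lower in EpCAM+ cells was not tested.

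Of the 9 genes, 8 passed edgeR's filter on low counts, and 5 of these 8 differed between the fractions. *Tcf7* and *Tcf7l2* were higher in EpCAM+ cells, and *Adam17*, *Bace1* and *Psen2* were lower. *Adam10*, *Fhl2* and *Ctnnb1* did not pass the test, and *Lef1* had too few counts to be tested. The test was the quasi-likelihood test of edgeR, adjusted by Benjamini-Hochberg over all 13560 tested genes at a threshold of 0.05. Under it 42.6% of all tested genes differed. Higher in EpCAM+ cells were 21.8% of all tested genes and lower 20.8%. For 8 genes this corresponds to 3.41 genes in either direction, 1.75 higher and 1.66 lower. The same 5 genes had fractions that did not overlap, against 40.1% of all tested genes, or 3.21 of 8. These counts are near the background of a comparison in which a large share of the transcriptome moved, so they are not a result about the 9 genes as a group. Another scaling moves the split of all calls, here 2961 up and 2818 down, to 3642 up and 2083 down (upper quartile) or 3476 up and 2066 down (library totals), while the same 5 members were called in the same directions. Those scalings set the median over all tested genes at 0.11 on the log2 scale, against 0.02 here. In bulk libraries, fewer cells that make a transcript and less of the transcript per cell cannot be told apart. Nothing in the labels says what the replicate numbers share, and p-values measure the spread between these libraries.

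**Figure D1:**
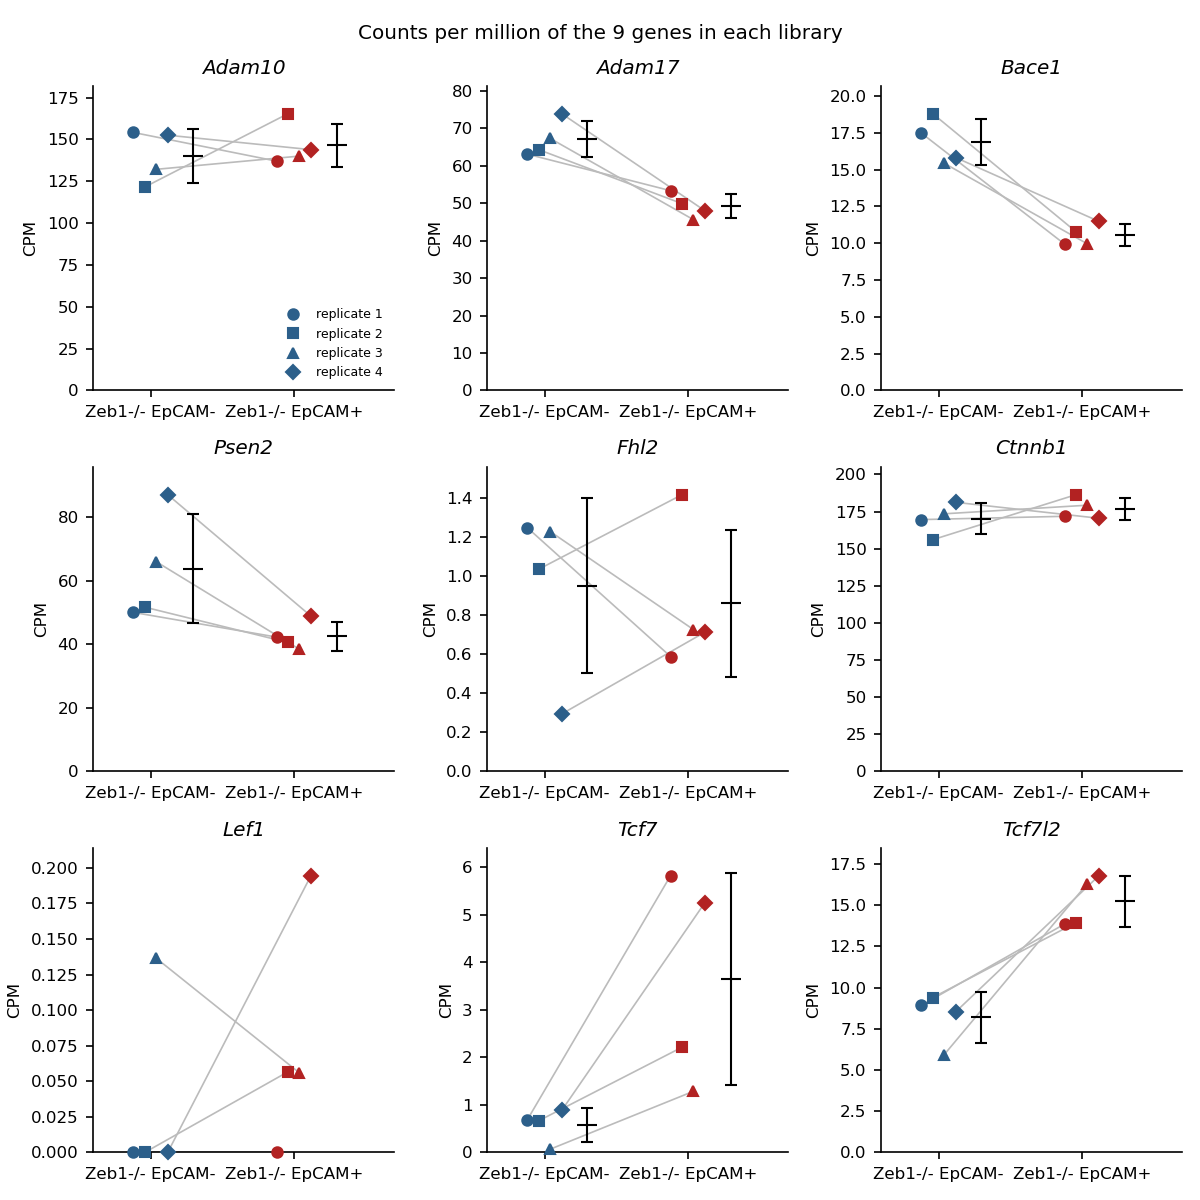
CPM (linear axis from 0) of each of the 9 genes in the 4 *Zeb1*-/- EpCAM- and 4 *Zeb1*-/- EpCAM+ libraries. Symbols mark the replicate number, grey lines join libraries with the same number, and black bars give mean ± SD (n = 4, not drawn for *Lef1*). Every line falls for *Adam17*, *Bace1* and *Psen2* and rises for *Tcf7* and *Tcf7l2*, while lines cross for *Adam10*, *Fhl2* and *Ctnnb1*.

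The sheddases came first. *Adam10* (ENSMUSG00000054693, chromosome 9 of GRCm38, 70678997 to 70780229) encodes a metalloprotease that sheds many membrane proteins and makes the first ligand-induced cut in Notch. It reached 137, 165, 140 and 144 CPM in EpCAM+ replicates 1 to 4 and 154, 122, 132 and 153 CPM in EpCAM- replicates 1 to 4. The ranges overlapped, and 2 of 4 same-numbered pairs were higher in EpCAM+ cells. The log2 fold change was 0.07 (standard error 0.10, 95% interval -0.15 to 0.28, edgeR adjusted p = 0.605), so a change beyond 0.28 on the log2 scale lies outside the interval.

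*Adam17* (ENSMUSG00000052593, chromosome 12, 21323509 to 21373632) encodes the protease that releases tumor necrosis factor from the cell surface. Its level was 53.3, 49.9, 45.6 and 48.0 CPM in EpCAM+ replicates 1 to 4 and 63.1, 64.3, 67.3 and 73.9 CPM in EpCAM- replicates 1 to 4. All EpCAM+ values lay below all EpCAM- values. The mean was 49.2 ± 3.27 CPM (SD, n = 4) against 67.2 ± 4.84 CPM (SD, n = 4), a log2 fold change of -0.45 (standard error 0.08, 95% interval -0.63 to -0.27, edgeR adjusted p = 0.00175). The 4 differences between same-numbered libraries ran from -0.62 to -0.24 on the log2 scale. *Adam17* shares 311 bases of exon with the oppositely oriented gene *Iah1*, 4.35% of its exonic length, and *Iah1* had a log2 fold change of 0.00 (adjusted p = 0.993).

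The balance of the 2 metalloproteases was compared within libraries. Per kilobase of gene length, the ratio of *Adam10* to *Adam17* was 3.74, 4.83, 4.47 and 4.37 in EpCAM+ replicates 1 to 4 and 3.56, 2.75, 2.86 and 3.01 in EpCAM- replicates 1 to 4. Every EpCAM+ ratio was above every EpCAM- ratio, although EpCAM+ replicate 1 exceeded EpCAM- replicate 1 by a small margin. The log2 ratio was 2.12 ± 0.15 (SD, n = 4) against 1.60 ± 0.16 (SD, n = 4), a difference of 0.52. An exact two-sided permutation test gave p = 0.0286, the smallest that 4 libraries against 4 allow, which became 0.0571 after Benjamini-Hochberg adjustment over the 2 ratios tested and so did not pass the threshold.

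*Bace1* (ENSMUSG00000032086, chromosome 9, 45838580 to 45864399) encodes the beta-secretase of the amyloid precursor protein. It was expressed at 9.94, 10.8, 9.95 and 11.5 CPM in EpCAM+ replicates 1 to 4 and at 17.5, 18.8, 15.4 and 15.8 CPM in EpCAM- replicates 1 to 4. The fractions did not overlap, and the gap between the highest EpCAM+ and the lowest EpCAM- library exceeded the range within EpCAM+. The log2 fold change was -0.68 (standard error 0.11, 95% interval -0.93 to -0.43, edgeR adjusted p = 0.0013). Exons of *Bace1* overlap those of *Rnf214* on the other strand over 975 bases, 15.4% of the exonic length of *Bace1*. *Rnf214* had 223 to 392 counts, against 152 to 280 of *Bace1*, and a log2 fold change of 0.13 (adjusted p = 0.325). The strand setting of the counting is not given in the sources used here, so reads from that overlap cannot be told apart.

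*Psen2* (ENSMUSG00000010609, chromosome 1, 180227004 to 180263438) encodes presenilin 2, one of the alternative catalytic subunits of gamma-secretase. It reached 42.2, 40.5, 38.4 and 48.8 CPM in EpCAM+ replicates 1 to 4 and 50.0, 51.6, 65.9 and 87.0 CPM in EpCAM- replicates 1 to 4. The fractions were separated only narrowly, since EpCAM+ replicate 4 and EpCAM- replicate 1 were 48.8 and 50.0 CPM, and EpCAM- replicates 3 and 4 carried most of the distance. The summed erythroid markers were also highest in these 2 libraries, at 1979, 2261, 4985 and 6755 CPM in EpCAM- replicates 1 to 4 against 69.2 to 259 CPM in EpCAM+ libraries, and their part in the *Psen2* value was not tested. The mean was 42.5 ± 4.50 CPM (SD, n = 4) against 63.6 ± 17.1 CPM (SD, n = 4), and the log2 fold change was -0.58 (standard error 0.17, 95% interval -0.95 to -0.21, edgeR adjusted p = 0.0178). Without EpCAM+ replicate 3 the log2 fold change was -0.54 with adjusted p = 0.0517 from the same edgeR test, which did not pass the threshold. The value ran from -0.69 to -0.40 as each library was left out.

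**Figure D2:**
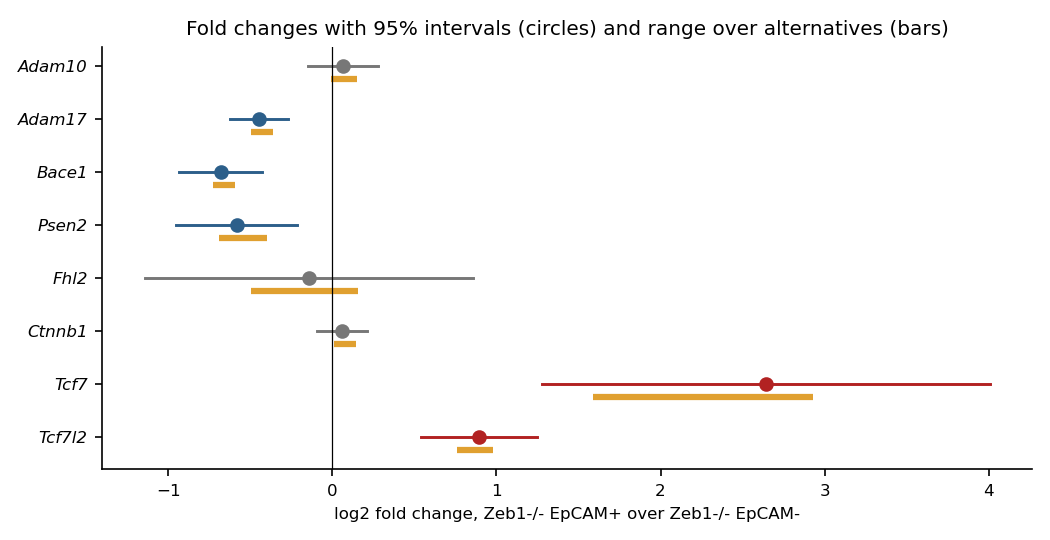
Log2 fold change of *Zeb1*-/- EpCAM+ over *Zeb1*-/- EpCAM- cells for the 8 tested genes, as circles with 95% intervals (red, higher; blue, lower; grey, adjusted p of 0.05 or above), and orange bars for the range over the alternative settings. The intervals of *Adam17*, *Bace1* and *Psen2* lie below 0 and those of *Tcf7* and *Tcf7l2* above 0, and the bar of *Tcf7* reaches down to 1.59.

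The nuclear partners of the intracellular domain gave no call. *Fhl2* (ENSMUSG00000008136, chromosome 1, 43123074 to 43196984), an adaptor made of LIM domains, had 9, 25, 13 and 11 counts in EpCAM+ replicates 1 to 4 and 20, 14, 18 and 4 counts in EpCAM- replicates 1 to 4. The highest value was an EpCAM+ library and the lowest an EpCAM- library. At 0.861 ± 0.376 against 0.952 ± 0.449 CPM (SD, n = 4 each), its log2 fold change was -0.14 (standard error 0.45, edgeR adjusted p = 0.818). The 95% interval, from -1.14 to 0.86, covers changes in both directions of the size measured for *Adam17*, *Bace1* and *Psen2*, so the direction was not detectable at this depth.

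*Ctnnb1* (ENSMUSG00000006932, chromosome 9, 120929216 to 120960507), which encodes beta-catenin, had the most counts of the 9 genes. It lay at 172, 186, 179 and 170 CPM in EpCAM+ replicates 1 to 4 and at 169.6, 156, 173 and 181 CPM in EpCAM- replicates 1 to 4. The ranges overlapped, and 3 of 4 same-numbered pairs were higher in EpCAM+ cells. The log2 fold change was 0.06 (standard error 0.07, 95% interval -0.09 to 0.21, edgeR adjusted p = 0.522). This is the narrowest interval among the 8 tested members. Beta-catenin is regulated largely by protein breakdown and location, which RNA counts do not measure.

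The TCF/LEF factors carry beta-catenin to DNA. *Lef1* (ENSMUSG00000027985, chromosome 3, 131110471 to 131224356) had 0, 1, 1 and 3 counts in EpCAM+ replicates 1 to 4 and 0, 0, 2 and 0 counts in EpCAM- replicates 1 to 4. All 8 values are at or below 3 counts, the limit that a count of 0 allows (0.168 to 0.222 CPM, counting error only), so no fold is given. *Lef1* RNA was not detectable above that limit in either fraction.

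*Tcf7* (ENSMUSG00000000782, chromosome 11, 52252371 to 52283014) encodes TCF-1, a factor of early T cell and innate lymphoid cell development. It had 89, 39, 23 and 81 counts in EpCAM+ replicates 1 to 4 and 11, 9, 1 and 12 counts in EpCAM- replicates 1 to 4. Every EpCAM+ library exceeded every EpCAM- library, and EpCAM+ replicates 1 and 4 stood well above replicates 2 and 3. In CPM these were 5.82, 2.21, 1.29 and 5.25 against 0.687, 0.666, 0.0683 and 0.883. The log2 fold change was 2.64 (standard error 0.61, 95% interval 1.28 to 4.01, edgeR adjusted p = 0.00666), and all 4 same-numbered pairs were higher in EpCAM+ cells, by 1.56 to 2.87 on the log2 scale. EpCAM+ replicates 1 and 4 are also the libraries with the highest conventional and plasmacytoid dendritic cell markers. Of the conventional list, 7 of 8 tested genes rose, and of the plasmacytoid list, 1 of 4 rose and 1 fell. Without these 2 libraries, the log2 fold change of *Tcf7* was 1.59 with adjusted p = 0.0904, and the part of either cell type in the value was not tested.

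*Tcf7* moved in the same direction as some T cell and innate lymphoid markers. All 3 T cell markers that could be tested rose, out of 12 listed. *Lat* reached 78.6 ± 13.5 CPM against 38.5 ± 7.34 CPM (SD, n = 4 each) and *Lck* had a log2 fold change of 1.34. The summed T cell list was 123 to 161 CPM in EpCAM+ and 46.9 to 72.7 CPM in EpCAM- libraries. Of the subunits of the T cell receptor complex, *Cd3e* had 0 to 1 counts, *Cd3g* 0 to 10 and *Cd3d* 0 to 12 over all libraries. *Cd247*, the zeta chain, had 5 to 19 counts in EpCAM+ and 1 to 9 in EpCAM- libraries. Of the natural killer and innate lymphoid list, *Gata3* (log2 fold change 1.80) and *Rora* (1.88) rose and *Il1rl1* (-3.77) fell. Its summed level was 681 to 838 CPM in EpCAM+ and 722 to 914 CPM in EpCAM- libraries, most of it from *Nkg7*. Their part in the *Tcf7* value was not tested.

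*Tcf7l2* (ENSMUSG00000024985, chromosome 19, 55741810 to 55933654) encodes TCF-4, the main TCF factor of the intestinal epithelium. It was expressed at 13.9, 13.9, 16.3 and 16.8 CPM in EpCAM+ replicates 1 to 4 and at 8.93, 9.40, 5.94 and 8.53 CPM in EpCAM- replicates 1 to 4. The fractions were clearly apart, and the lowest EpCAM+ value was well above the highest EpCAM- value. The mean was 15.2 ± 1.54 CPM against 8.20 ± 1.55 CPM (SD, n = 4 each), and the log2 fold change was 0.89 (standard error 0.16, 95% interval 0.54 to 1.25, edgeR adjusted p = 0.00177). EpCAM+ replicates 1 and 4 were its lowest and highest EpCAM+ libraries, and without these 2 its log2 fold change was 0.88 (adjusted p = 0.0153). *Tcf7l1*, the remaining factor of the family, had 13 to 38 counts in EpCAM+ and 5 to 14 counts in EpCAM- libraries. It differed by 1.12 on the log2 scale (standard error 0.40, edgeR adjusted p = 0.042), and with the replicate block the adjusted p was 0.0581. All 3 tested factors of the family were thus higher, 2 of them with the replicate block and 1, *Tcf7l2*, without EpCAM+ replicates 1 and 4.

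The balance within the family was compared in the same way. Per kilobase, the ratio of *Tcf7l2* to the sum of *Lef1* and *Tcf7* was 0.716, 1.88, 3.76 and 0.950 in EpCAM+ replicates 1 to 4 and 3.90, 4.24, 16.4 and 2.90 in EpCAM- replicates 1 to 4. The ratio was below 1 in EpCAM+ replicates 1 and 4 and above 1 in the other libraries. This rests on the deposited gene lengths: with the deposited FPKM, which imply a much shorter *Tcf7l2*, the ratio was 2.29, 5.93, 11.8 and 2.98 in EpCAM+ replicates 1 to 4 and 9.29 to 30.7 in EpCAM- libraries, above 1 in all 8, so which factor was the more abundant in EpCAM+ replicates 1 and 4 depends on the length used. EpCAM+ replicate 3 overlapped EpCAM- replicate 4. The log2 ratio was 0.57 ± 1.07 against 2.40 ± 1.11 (SD, n = 4 each; exact two-sided permutation test p = 0.0571, adjusted 0.0571), a difference of -1.84 that did not pass the threshold. In EpCAM- replicate 3 the ratio of 16.4 rests on 1 count of *Tcf7* and 2 of *Lef1*, neither above the limit of 3 counts. Without this library the difference in log2 ratio was -1.30. A ratio of *Lef1* to *Tcf7* could not be formed in the 4 libraries where *Lef1* was 0.

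**Figure D3:**
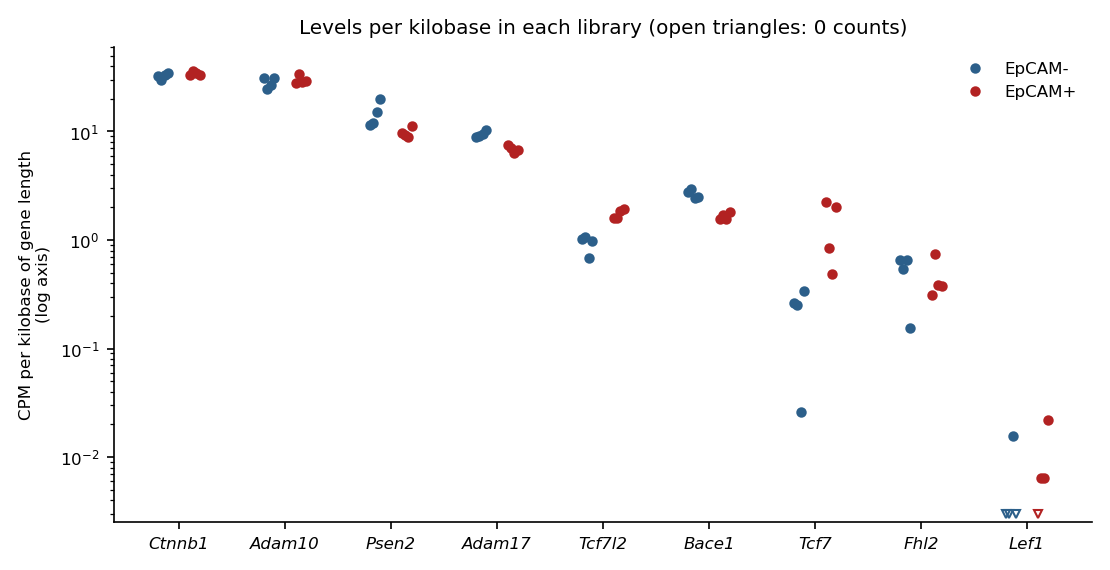
Level of each of the 9 genes in CPM per kilobase of gene length (log axis) in the 4 EpCAM- (blue) and 4 EpCAM+ (red) libraries, with open triangles for libraries with 0 counts. *Ctnnb1* and *Adam10* were the most abundant in both fractions and *Lef1* the least, and *Tcf7* spread over the widest range within each fraction among the detected genes.

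Levels per kilobase put the genes in nearly the same order in both fractions. In EpCAM+ cells *Ctnnb1* (34.1 ± 1.42 CPM per kilobase; SD, n = 4) and *Adam10* (29.8 ± 2.61) led, followed by *Psen2* (9.81 ± 1.04) and *Adam17* (6.88 ± 0.457). *Tcf7l2* (1.74 ± 0.177), *Bace1* (1.66 ± 0.117) and *Tcf7* (1.39 ± 0.850) followed, with *Fhl2* (0.454 ± 0.198) next and *Lef1* (0.00874 ± 0.00943) last. In EpCAM- cells *Ctnnb1* was at 32.8 ± 2.03, *Adam10* at 28.5 ± 3.24, *Psen2* at 14.7 ± 3.96 and *Adam17* at 9.39 ± 0.677 CPM per kilobase. *Bace1* (2.66 ± 0.245) stood above *Tcf7l2* (0.938 ± 0.177) there, and *Fhl2* (0.502 ± 0.237) above *Tcf7* (0.219 ± 0.134). On this scale *Ctnnb1* and *Adam10* overlapped in both fractions. In EpCAM+ cells the neighbours from *Tcf7l2* through *Fhl2* also overlapped, as did *Fhl2* and *Tcf7* in EpCAM- cells, while *Bace1* and *Tcf7l2* did not overlap in EpCAM- cells. The deposited FPKM values, made with other gene lengths, gave the same order of means in each fraction but other overlaps. By FPKM *Ctnnb1* (118 to 137 in EpCAM+, 104 to 120 in EpCAM-) and *Adam10* (62.9 to 79.6 and 53.2 to 70.8) did not overlap. In EpCAM+ cells *Tcf7l2* (6.35 to 7.80), *Bace1* (3.98 to 4.57) and *Tcf7* (0.640 to 2.78) did not overlap either, whereas *Adam10* overlapped *Psen2* in EpCAM- cells. Which neighbours can be told apart thus depends on the gene lengths, and the comparisons between fractions of one gene do not.

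The bases before the annotated starts are shown as context for the 4 called genes that have an entry in the RefSeq start table (GRCm38.p6). These genes differed between fractions that both carried the *Zeb1* deletion, so a response to the loss of *Zeb1* was not tested. Each line gives the 250 bases before the most upstream start in that table, read 5′ to 3′ on the strand of the gene. For *Psen2* that start lies 7138 bases inside the gene span given above, so its window is not the region before the whole gene model. Capitals mark E-box letters (CANNTG, the general form of the sites bound by ZEB and basic helix-loop-helix proteins) and the letters CTTTG on either strand, the core of TCF/LEF sites.
Tcf7: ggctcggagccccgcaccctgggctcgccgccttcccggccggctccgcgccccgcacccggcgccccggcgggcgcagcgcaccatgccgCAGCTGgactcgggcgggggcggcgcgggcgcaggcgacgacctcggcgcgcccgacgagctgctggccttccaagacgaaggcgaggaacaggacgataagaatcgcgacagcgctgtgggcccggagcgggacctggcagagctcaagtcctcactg
Tcf7l2: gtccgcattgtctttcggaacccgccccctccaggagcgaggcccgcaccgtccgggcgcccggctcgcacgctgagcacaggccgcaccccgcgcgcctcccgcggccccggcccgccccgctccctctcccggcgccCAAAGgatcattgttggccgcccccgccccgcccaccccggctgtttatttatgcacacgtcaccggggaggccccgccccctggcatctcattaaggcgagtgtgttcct
Adam17: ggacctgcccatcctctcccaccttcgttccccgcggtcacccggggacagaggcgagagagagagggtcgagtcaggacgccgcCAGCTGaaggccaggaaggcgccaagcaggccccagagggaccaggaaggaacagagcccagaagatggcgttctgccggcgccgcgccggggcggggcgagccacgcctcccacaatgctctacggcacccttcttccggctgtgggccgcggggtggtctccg
Psen2: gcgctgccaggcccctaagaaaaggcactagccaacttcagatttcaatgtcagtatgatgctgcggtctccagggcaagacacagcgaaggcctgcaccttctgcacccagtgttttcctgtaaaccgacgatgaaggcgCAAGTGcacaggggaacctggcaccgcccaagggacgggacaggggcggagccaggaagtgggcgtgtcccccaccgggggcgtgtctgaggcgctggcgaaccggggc
Tcf7 lies at chr11:52283015-52283264 and Adam17 at chr12:21373633-21373882, both on the minus strand, Psen2 at chr1:180256301-180256550 on the minus strand, and Tcf7l2 at chr19:55741560-55741809 on the plus strand. The window of *Tcf7* held 1 E-box of the letters CAGCTG, 159 bases before the start, and it lies in a reading frame that opens with an ATG 165 bases before the start and has no stop codon before the end of the window, so these letters may be coding sequence of a longer form. The window of *Adam17* held the same letters 165 bases before the start. *Psen2* had a single E-box 109 bases before its start, and *Tcf7l2* had none but 1 match to CTTTG, 111 bases before its start. GC content was 76.0% in the *Tcf7*, 72.8% in the *Tcf7l2*, 70.4% in the *Adam17* and 62.8% in the *Psen2* window, against a median of 52.4% over all windows.

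The stricter forms were absent. Across the 16 windows of the 8 members with an entry, 0 held CAGGTG or CAGGTA on either strand, the E-box letters that ZEB1 prefers, and 0 held CTTTGAA or CTTTGAT on either strand. Of all 32851 windows of the same length, 25.4% held the first and 7.48% the second. For the looser letters, 11 of 16 windows held CANNTG, which includes the ZEB1-preferred letters, against 66.2% of all windows, and 6 of 16 held CTTTG, which is part of the longer TCF/LEF letters, against 48.6%. Several windows belong to one gene and overlap, as do the first *Lef1* windows. The absence of these letters says only that they are not in these 250 bases.

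**Figure D4:**
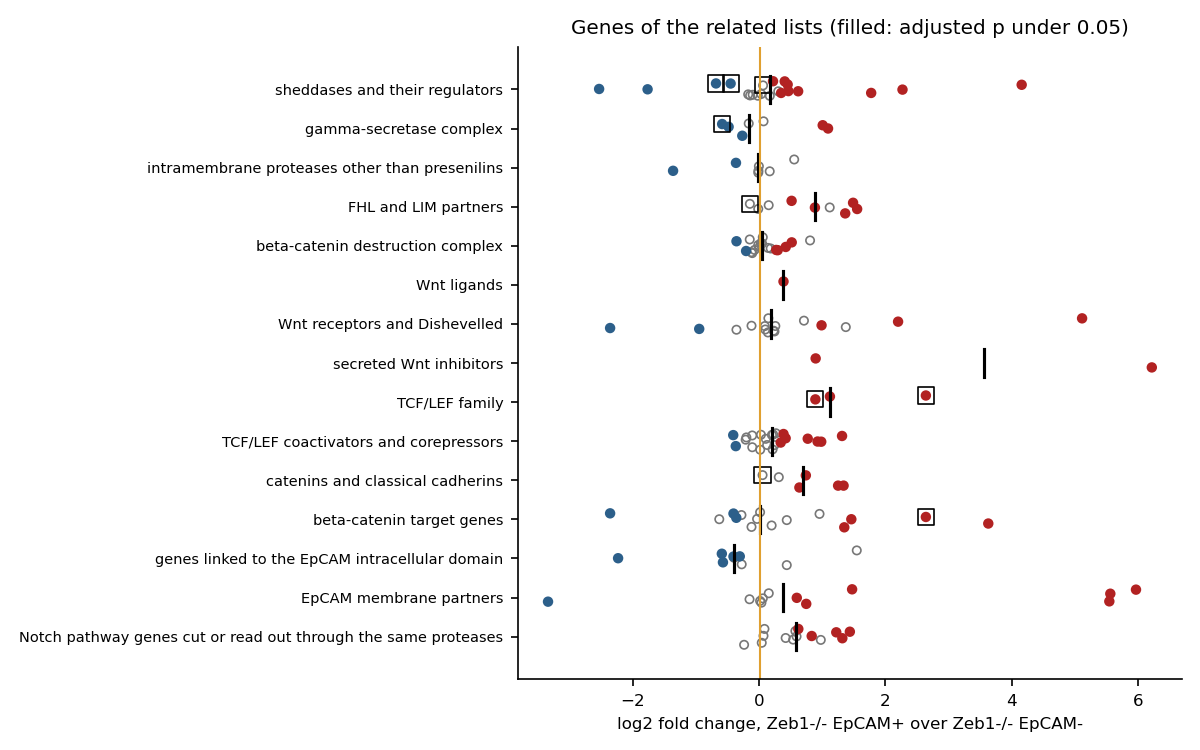
Log2 fold change of *Zeb1*-/- EpCAM+ over *Zeb1*-/- EpCAM- cells for every tested gene of 15 related lists, filled where the adjusted p was under 0.05 (red, higher; blue, lower), with squares around the 9 genes' tested members, a black tick at the median of each list and an orange line at the median of all tested genes. Lists such as the TCF/LEF family and the LIM proteins have medians right of that line, and genes linked to the EpCAM intracellular domain left of it.

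The other genes of the same steps were described from 15 lists chosen by function. Among the 148 tested genes on them that are not among the 9, 52 rose and 19 fell. This is 48.0% of them called, against 42.6% of all tested genes (21.8% of all tested genes higher and 20.8% lower). The 148 include *Epcam*, whose rise was set by the sort, and these lists were described by counts alone. Of the sheddases and their regulators, 21 of 29 were tested, 9 rose and 4 fell, *Adam17* and *Bace1* among the latter. Among the other ADAM genes, *Adam8* rose by 4.16 (36 to 294 against 5 to 15 counts) and *Adam9* by 0.41 on the log2 scale. Without EpCAM+ replicates 1 and 4, *Adam8* was at 2.49 and *Adam9* did not pass (edgeR adjusted p = 0.213). *Adam15* was at -0.17 (edgeR adjusted p = 0.236). *Adam19*, not tested, had 3 to 99 counts in EpCAM+ and 0 in EpCAM- libraries. *St14*, the matriptase that cuts EpCAM in epithelia, rose by a log2 fold change of 1.78 (70.4 ± 7.21 against 20.5 ± 3.07 CPM; SD, n = 4 each), and its inhibitor *Spint1* rose by 2.27. *Timp2*, an inhibitor of metalloproteases, rose by 0.62. The iRhom gene *Rhbdf2*, whose protein carries ADAM17 to the cell surface, had a log2 fold change of -0.10 (edgeR adjusted p = 0.591). The tetraspanins that escort ADAM10 moved in both directions: *Tspan14* rose by 0.47, *Tspan33* (-1.76) and *Tspan15* (-2.53) fell, and *Tspan5* (-0.02, edgeR adjusted p = 0.919) and *Tspan17* (0.04, adjusted p = 0.906) did not pass the test.

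All 7 genes of the gamma-secretase list were tested, and 2 rose and 3 fell (3 calls in all without EpCAM+ replicates 1 and 4). *Psen2* fell as above, *Aph1a* (log2 fold change -0.48) fell, and its paralogs *Aph1c* (1.09) and *Aph1b* (1.01) rose. These 2 paralogs are near-identical in sequence, so reads could have been split between them in the counting. *Ncstn*, the substrate-binding subunit, was at -0.16 (adjusted p = 0.197) and *Psenen*, the activating subunit, at 0.07 (adjusted p = 0.37) in the same edgeR test. Of the intramembrane proteases other than presenilins, 7 were tested, 0 rose and 2 fell, namely *Sppl2b* (-1.36), a signal peptide peptidase-like protease of the lysosome and plasma membrane, and the mitochondrial protease *Parl* (-0.36). Of the Notch pathway list, which holds receptors and ligands cut by the same proteases along with their modifiers, coactivators and targets, 14 were tested, 5 rose and 0 fell. The smallest adjusted p belonged to *Mfng* (0.84), a glycosyltransferase that modifies Notch, the ligand gene *Jag2* (1.22) and the nuclear coactivator gene *Maml2* (1.32).

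Around *Fhl2* and *Ctnnb1*, 9 genes of the FHL and LIM list were tested, of which 5 rose and 0 fell. They were *Lpp* (1.37), *Wtip* (1.49), *Zyx* (0.52), *Fhl4* (1.55) and *Ajuba* (0.89), most of which encode proteins of cell adhesion sites and *Fhl1* was at 1.12 (adjusted p = 0.0855). Of the catenins and cadherins, 6 were tested, 4 rose and 0 fell. *Cdh1*, or E-cadherin, rose by 1.34 (10.5 ± 2.23 against 4.14 ± 1.24 CPM; SD, n = 4 each), and *Ctnna1* (0.64) and *Jup* (1.25), which encode alpha-catenin and plakoglobin, rose as well. *Ctnnb1*, on the same list, did not pass the test. Of the destruction complex that marks beta-catenin for breakdown, 18 genes were tested, 4 rose and 2 fell. *Apc* (0.52) and *Amer1* (0.42) rose and *Ppp2r5d* (-0.36), a phosphatase subunit, fell. Without EpCAM+ replicates 1 and 4, the calls were 2 of 9 in the LIM list and 1 of 18 in the destruction complex.

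Upstream of beta-catenin, only *Wls*, the carrier that brings Wnt proteins to the surface, could be tested of 21 genes in the ligand list, and it rose by 0.38. Among its untested genes only *Wnt10a* had fractions that did not overlap, with 3 to 55 counts in EpCAM+ and 0 to 1 in EpCAM- libraries. Of 16 tested receptor and Dishevelled genes, 3 rose and 2 fell, with *Fzd6* (0.99) and *Fzd8* (2.20) higher and *Rnf43* (-2.36), a ligase that removes Frizzled receptors, lower. Of the secreted inhibitors and their receptors, the 2 tested genes, *Dkk3* and *Kremen1* (0.90), rose. *Dkk3* had 14 to 51 counts in EpCAM+ and 0 to 1 in EpCAM- libraries. *Sfrp1*, not tested, had 2 to 20 counts in EpCAM+ and 0 to 1 in EpCAM- libraries. *Sfrp4*, not tested here for its low counts, went the other way, with 0 to 3 counts in EpCAM+ and 8 to 56 in EpCAM- libraries, and without EpCAM+ replicates 1 and 4 it was tested and called lower, so that 2 of this list rose and 1 fell. Of 22 tested coactivators and corepressors of TCF/LEF factors, 7 rose and 2 fell. *Bcl9* (0.99), which links beta-catenin to its coactivators, and *Ctnnbip1* (0.77), which blocks beta-catenin from TCF binding, both rose, and *Hdac2* (-0.37) fell. With upper quartile scaling 8 receptor and Dishevelled genes were called, and without EpCAM+ replicates 1 and 4 there were 5 calls among coactivators and corepressors and 0 for *Wls*.

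Downstream, the listed beta-catenin targets did not move one way. Of 15 tested, 4 rose and 3 fell, with a median log2 fold change of 0.02, the same as over all tested genes. *Id2* (3.63) and *Ppard* (1.46) rose along with *Tcf7*, which is itself on this list, and *Rnf43* fell. *Axin2*, the most widely used target, had 1 to 2 counts in EpCAM+ and 0 to 5 counts in EpCAM- libraries and was not tested. Without EpCAM+ replicates 1 and 4, 4 targets were called. Of genes linked to the EpCAM intracellular domain, 9 were tested, 0 rose and 5 fell. The cyclin genes *Ccne1* (-2.23; 19.1 ± 1.94 against 89.4 ± 23.7 CPM, SD, n = 4 each) and *Ccna2* (-0.57), and *Rb1* (-0.59), had the smallest adjusted p. *Cdk4* (-0.30) and *Myc* (-0.40), which is also a listed beta-catenin target, fell with edgeR adjusted p = 0.024 and 0.0265. Without EpCAM+ replicates 1 and 4 neither passed (edgeR adjusted p = 0.095 and 0.136). *Ccnd1*, another cyclin gene of this list, was at 0.44 (edgeR adjusted p = 0.124). Upper quartile scaling gave 3 calls on this list, and leaving out EpCAM+ replicates 1 and 4 also gave 3. Of the membrane partners of EpCAM, 12 were tested, 6 rose and 1 fell. They include *Epcam* itself, used for the sort, *Cd9* (0.75) and *Cldn7* (5.55) among those that rose, and *Tspan8* (-3.34), which fell.

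For each tested member, the protein-coding gene with the most similar profile was found by the root mean square difference of centred log2 CPM over the 8 libraries. *Zeb2*, the paralog of *Zeb1*, was the nearest to *Bace1*, with a difference of 0.07 and a log2 fold change of -0.60 (edgeR adjusted p = 0.00033). *Mrpl49* was nearest to *Adam17* (0.04), *Leprot* to *Psen2* (0.07), *Zfp248* to *Tcf7l2* (0.09), *Prmt6* to *Adam10* (0.06) and *Tcf25* to *Ctnnb1* (0.04). The matches were looser for the genes with few counts, at 0.51 for *Vwa1* with *Tcf7* and 0.27 for *Slc36a1* with *Fhl2*. *Lef1* was not matched. Each match is only the smallest difference over all tested protein-coding genes in 8 libraries, and a link between matched genes, *Zeb2* and *Bace1* included, was not tested.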

How the data were processed

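RNA-Seq was analysed in 8 libraries, 4 of *Zeb1*-/- EpCAM+ and 4 of *Zeb1*-/- EpCAM- LSK cells. The authors amplified total RNA with SMART-Seq v4, sequenced paired ends, aligned reads to GRCm38.p6 with STAR (2.6.1d) and counted them per gene with featureCounts (1.5.0-p3), as the submitters' processing notes and the paper's methods give it. The deposited whole-number counts carry no normalization, and all tests used them. The deposited FPKM values of the authors were used only to check the order of levels and the ratios, since the deposited gene lengths exceed those the FPKM imply (2.57 times at the median over 8765 genes with at least 100 counts in every library). The table also holds the authors' fold changes and p-values, which were not used. Annotation release, strand and the treatment of multiply mapped reads are not given in the sources used here.

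Genes were kept by edgeR's filterByExpr (edgeR 4.0.16, R 4.3.3), scaled by TMM and compared with the quasi-likelihood test (two-sided, Benjamini-Hochberg, threshold 0.05). Standard errors come from the F statistic, and the 95% intervals from its total degrees of freedom. Levels between genes were compared as CPM per kilobase. Ratios of members were compared by exact permutation tests. The lists and members were chosen with earlier results of these data known, as were the alternatives and the rule for named genes, which were all 9 members, *Epcam*, *Zeb1*, the 3 tested genes of each list with the smallest adjusted p, and for each member the gene with the nearest profile. *Adam8*, *Adam9*, *Adam15*, *Adam19*, *Rhbdf2*, *Tspan5*, *Tspan14*, *Tspan15*, *Tspan17*, *Tspan33*, *Wnt10a*, *Sfrp1*, *Sfrp4*, *Aph1b*, *Ncstn*, *Psenen*, *Fhl1*, *Fhl4*, *Ajuba*, *Axin2*, *Ccnd1*, *Cdk4*, *Myc*, *Tspan8*, *Rnf214*, *Iah1* and the marker genes were named after their values were seen. One gene and one ratio that the rule would name are not reported here. Exon overlaps came from GENCODE release M21, and start windows from RefSeq. The fit was tested on simulated data.

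The replicate numbers pair the samples: across genes, deviations from the fraction mean correlated at 0.205 to 0.356 in the 4 pairs with the same number and at -0.216 to 0.0396 in the 12 others. What the numbers share is not given, and the paired fit is an alternative. Other alternatives were DESeq2 1.42.0, limma 3.58.1, other scalings and filters, and each library left out. Leaving out EpCAM+ replicates 1 and 4 together, the FPKM ratios and the letters CANNTG and CTTTG were added after the data were seen. Depth limits single genes: 3 counts correspond to 0.168 to 0.222 CPM, for counting error only, since reads carry no molecular identifiers.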

Additional observations from a re-analysis of the deposited data

Results flagged for a closer look

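Values of the 9 genes were screened for libraries far from the other 3 of their fraction, in 18 groups of 4 libraries, by Dixon's ratio of the gap to the range at its 95% critical value. Chance flags about 1 in 20 groups. *Fhl2* in EpCAM+ replicate 2 was at 1.42 CPM, from 25 counts, against 0.588 to 0.727 CPM in the other EpCAM+ libraries. *Lef1* in EpCAM- replicate 3 was at 0.137 CPM, from 2 counts, while the other EpCAM- libraries had 0 counts. Where all other values are 0, any count is flagged, so the rate of 1 in 20 does not hold for *Lef1*. *Fhl2* was not called between the fractions, and *Lef1* was not tested.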

How the results depend on the processing

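Of 134 repeats of the 8 tested members' fold changes under 17 alternatives, 132 kept their side of the threshold and, where called, their direction, and 2 lost the call. These were *Psen2* without EpCAM+ replicate 3 (log2 fold change -0.54, adjusted p = 0.0517) and *Tcf7* without EpCAM+ replicates 1 and 4 (1.59, adjusted p = 0.0904); the cause was not tested. Over these alternatives the log2 fold change ran from -0.50 to -0.36 for *Adam17*, -0.73 to -0.59 for *Bace1*, -0.69 to -0.40 for *Psen2* and 0.76 to 0.98 for *Tcf7l2*, while *Adam10* (-0.01 to 0.15) and *Fhl2* (-0.50 to 0.15) changed sign without being called. The count of members called was 5, or 4 where *Tcf7* had too few counts for a stricter filter, without EpCAM+ replicate 3, and without EpCAM+ replicates 1 and 4. In the paired fit with the replicate block the same 5 members were called, of 6818 genes in all.

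Without EpCAM+ replicates 1 and 4, 3675 genes were called in all, and the calls fell to 3 in the gamma-secretase list, 2 in the FHL and LIM list, 1 in the destruction complex, 0 among Wnt ligands, 1 in the TCF/LEF family, 5 among coactivators and corepressors, 4 among beta-catenin targets and 3 among genes linked to the EpCAM intracellular domain; that fit holds only 2 EpCAM+ libraries. Upper quartile scaling gave 8 calls among Wnt receptors and 3 among genes linked to the EpCAM intracellular domain. With 1 library left out, all genes called ran from 4662 to 6039. The difference in log2 ratio ran from 0.46 to 0.59 for *Adam10* to *Adam17* and from -2.29 to -1.30 for *Tcf7l2* to *Lef1* and *Tcf7*, and its 4 paired differences allow no exact p under 0.125. Depth limits *Lef1* and *Fhl2*, and also *Tcf7* in EpCAM- libraries, where it had 1 to 12 counts.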
